A study of Drosophila melanogaster with 8 samples.

Results

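The windows described here are 2 kb stretches of the euchromatic arms in which the H3K36me3 signal was higher in *dkdm4a* mutant embryos than in wild type embryos in both replicates, while the input DNA differed little. Arms 2L, 3L, 3R and X of *Drosophila melanogaster* were divided into windows of 2 kb, and the 1 Mb next to the centromere of each arm was left out. A window needed at least 3 probes. It was taken as raised when its mean log2 ratio of immunoprecipitated (IP) over input DNA was at least 0.5 higher in the mutant in each replicate, which is 1.41-fold on the linear scale, and when the log2 input signal differed by less than 0.3 in each replicate. These limits were met by 316 of 44159 euchromatic windows (0.716%), of 57268 windows in the whole series. They cover 632 kb and hold 2580 probes. The windows were thus chosen by the measured difference in log2 IP/input and by the input signal, and the size and direction of their change are given as a description without a test.

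H3K36me3 was profiled by ChIP-chip on whole embryos collected 2 to 4 hr after egg laying. The *dkdm4a* mutant embryos (2 biological replicates) came from the line y1 w67c23 with the P-element insertion KG04636 in the first exon of the gene. The wild type embryos (2 biological replicates) came from a line in which this P-element was mobilized out of the gene by a cross to another stock. The paper describes the chromosomal background of this line as identical to that of the mutant. Whether the line kept chromosomes of the other stock was not tested here. Each sample is a pool of embryos from population cages. The genome is split over 2 Agilent tiling array designs, so that every sample took 2 of the 8 arrays. Cy5 always carried the IP DNA (antibody ab9050) and Cy3 the input, without swapped dyes.

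Trimethylation of histone H3 at lysine 36 is placed by the enzyme Set2, which travels with elongating RNA polymerase II. It marks the bodies of transcribed genes, rising towards their 3′ ends. KDM4 enzymes are JmjC-domain demethylases that remove it, and *Drosophila* KDM4A (dKDM4A) binds Heterochromatin Protein 1a, a protein best known from the chromatin around the centromeres. The windows treated here lie on the arms, away from the 1 Mb next to the centromere. The array files place probes by sequence name and position without naming a genome build, so positions are those of the files, and no gene, exon or base sequence was placed on a window.

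The median of each array was subtracted from its log2 ratios, so 0 stands for the middle of an array and a change shared by all probes is not visible. Over the 8 arrays, between 85.6% and 93.3% of probes were well above background in the IP channel and between 96.7% and 99.1% in the input channel. The arrays of replicate 1 share a scan day, as do those of replicate 2, and each difference below was taken between mutant and wild type of the same replicate. The precision of all values is limited by the 2 samples per genotype.

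The difference was modest in most raised windows. The median log2 IP/input over the 316 windows was 2.22 in mutant replicate 1 and 2.68 in mutant replicate 2, against 1.34 in wild type replicate 1 and 1.98 in wild type replicate 2. Both mutant medians lay above both wild type medians. Over all euchromatic windows the corresponding medians were −0.19 and −0.13 in the mutant and −0.20 and −0.14 in wild type, close to the middle of the arrays in every sample. Median differences between mutant and wild type were 0.74 (replicate 1) and 0.66 (replicate 2) for the raised windows, against 0.01 in each replicate for all euchromatic windows. As a mean of the replicates the difference had a median of 0.71 (1.64-fold), with quartiles of 0.62 and 0.83. It was below 0.75 in 190 windows, between 0.75 and 1 in 90, between 1 and 1.5 in 28, and 1.5 or more in 8. The replicates of a raised window gave differences that lay a median of 0.13 apart.

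**Figure D1:**
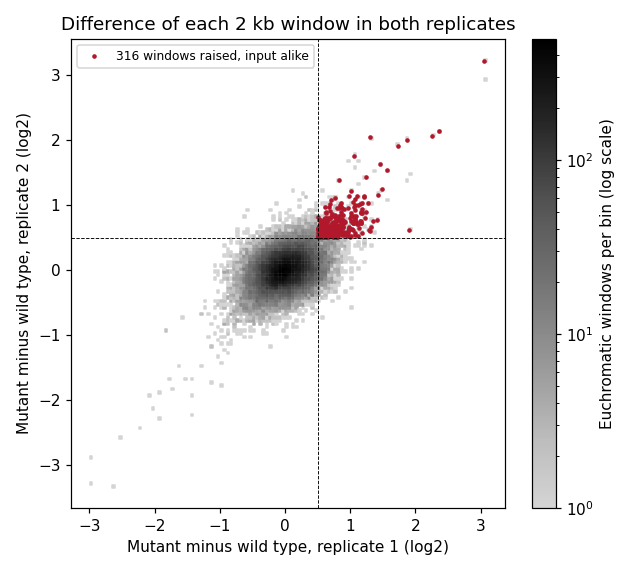
Mutant minus wild type log2 IP/input of each euchromatic 2 kb window, with replicate 1 on the horizontal and replicate 2 on the vertical axis. Grey squares count all 44159 windows per bin on a log scale, red points are the 316 raised windows, and dashed lines mark the limit of 0.5. Most red points sit just beyond the limits and a few reach differences above 1.5 in both replicates.

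The order of the samples was not the same in all raised windows. In 261 of them both mutant samples lay above both wild type samples, a separation found in 14.8% of all euchromatic windows, and in the other 55 wild type replicate 2 or wild type replicate 1 reached the level of a mutant sample. Values of replicate 2 were higher than those of replicate 1 in 307 of the 316 windows in the mutant and in 304 in wild type, with median gaps of 0.49 and 0.57. Over all euchromatic windows these gaps were 0.14 and 0.15. A window could therefore pass the limits within each replicate and still overlap between the genotypes. limma, fitted to all windows of the series with Benjamini-Hochberg adjustment, called 32 of the 316 windows higher in the mutant at an adjusted p under 0.05. This fit called 69 of all euchromatic windows higher (0.156%) and 64 lower. It called fewer of the 316 when any 1 sample was left out, and 1 genotype then rested on a single sample. With the replicate as a block, which removes the gap between the replicates, it called all 316, beside 1754 euchromatic windows higher (3.97%) and 1619 lower. The split between higher and lower calls without the block moved to 158 against 67 when the arrays were scaled to the same spread and to 80 against 4 after normexp background correction. Since the same values chose the windows, these calls are no independent evidence. The choice also depended on the processing of the arrays: after normexp 64 of the 316 windows met the same limits, and after loess within each array 45 did.

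The limits gave fewer windows in the opposite direction. With the sign turned, 174 windows (0.394% of the euchromatic windows) were lower in the mutant by at least 0.5 in both replicates with the input alike. Before the limit on the input, 390 windows (0.883%) were raised, and 74 of these were left out because the input differed. The windows nearest to the limit differ little from those just beyond it. The raised window chrX:9402001-9404000, which holds only 3 probes, had differences of 0.50 and 0.81, chr3R:5282001-5284000 had 0.63 and 0.50, and chr2L:10452001-10454000 had 0.50 and 0.63. Just outside, with the smaller difference below 0.5 before rounding, chr2L:2564001-2566000 had 0.50 and 1.01, chr3R:25674001-25676000 had 0.82 and 0.50, and chr3R:3798001-3800000 had 0.50 and 0.94. Mean differences of the 3 windows just outside were between 0.66 and 0.76, against 0.56 to 0.66 for the 3 just inside.

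The strongest windows were raised far beyond this border. Of the 316 windows, 21 were raised by at least 1 in both replicates. The 10 windows of 5 or more probes with the largest smaller difference lay on 3R, 3L and 2L. In every one of them both mutant samples lay above both wild type samples, a separation found in 14.8% of all euchromatic windows. The 10 windows were picked for large differences, which favours this separation. The sizes of these 10 differences depended on the processing. They ranged from 0.52 to 1.88 after normexp, where 6 changed by over 1.5 times, and from 0.20 to 1.68 after loess, where 7 did and 3 were below 0.5.

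The largest difference was found in chr3R:21096001-21098000. Its log2 IP/input was 3.12 and 3.23 in the mutant samples, against 0.07 and 0.01 in the wild type samples. The mean difference was 3.14 ± 0.11 (SD, n = 2), or 8.79-fold, but 1.88 after normexp and 1.22 after loess, and all 7 probes of the window were raised by at least 0.5 in both replicates, by 2.65 to 3.85 each. In wild type embryos this window was at the middle of the array, so the signal appeared where wild type showed none above that level. The adjoining window chr3R:21098001-21100000 had 2.35 and 1.85 in the mutant, against −0.01 and −0.29 in wild type, again with all 7 probes raised.

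The 3R windows lay at the edge of a strongly marked stretch. The 8 kb to their left, chr3R:21086001-21094000, had window means between 3.61 and 5.74 in the mutant and between 3.59 and 5.74 in wild type, and the differences of its windows, averaged over the replicates, were between −0.07 and 0.15. The window between this stretch and the raised pair, chr3R:21094001-21096000, had 4.17 and 4.24 in the mutant, against 1.11 and 1.30 in wild type. It does not count as raised here only because the input differed by 0.31 and 0.27. The input also differed in chr3R:21092001-21094000, within the marked stretch, by −0.25 and −0.36. To the right, chr3R:21100001-21102000 had 0.30 and −0.08 in the mutant, against −0.28 and −0.04 in wild type, and no sample had a window mean above 0.10 over the next 8 kb. At the level of probes, 21 consecutive probes over 5.97 kb were raised by at least 0.5 in both replicates, with means of 3.03 and 2.89 in the mutant and 0.29 and 0.24 in wild type. At its right end the differences became smaller over several probes, with 1.84 and 1.46, then 1.89 and 1.01, then 1.12 and 0.53 at the last 3 probes of the stretch. Around the 2 raised windows, 7.5% and 7.4% of the probes within 10 kb had input differences of at least 0.5 in the same direction in both replicates. Their part in the result was not tested.

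Another locus lay away from marked stretches. In chr3R:3094001-3096000 log2 IP/input was 2.49 and 3.19 in the mutant samples, against 0.24 and 1.14 in the wild type samples, and all 9 probes were raised by at least 0.5 in both replicates. The window to its left, chr3R:3092001-3094000, was also raised, with 0.65 and 1.23 in the mutant and −0.52 and 0.34 in wild type. The 10 kb before the pair had wild type window means of at most 0.27 in a sample. On the right, the adjoining window chr3R:3096001-3098000 still differed by 0.38 and 0.73, and the highest wild type window means, in chr3R:3100001-3102000, were 0.81 and 0.54. The raised stretch held 13 consecutive probes over 2.88 kb.

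On 3L, chr3L:10190001-10192000 had 1.88 and 2.00 in the mutant, against 0.14 and 0.09 in wild type, and the next window, chr3L:10192001-10194000, had 3.40 and 4.08 in the mutant, against 1.83 and 2.54 in wild type. Both lie on the slope leading up to a marked stretch, whose window chr3L:10194001-10196000 had 4.56 and 5.33 in the mutant and 4.26 and 4.97 in wild type. In this neighbourhood the input was not alike throughout. The log2 input of chr3L:10198001-10200000 was 1.16 and 0.76 higher in the mutant, and 19.0% of the probes within 10 kb of the first window had input differences of at least 0.5 in the same direction in both replicates, against a median of 1.79% for the raised windows. The part of these input differences in the result was not tested.

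**Figure D2:**
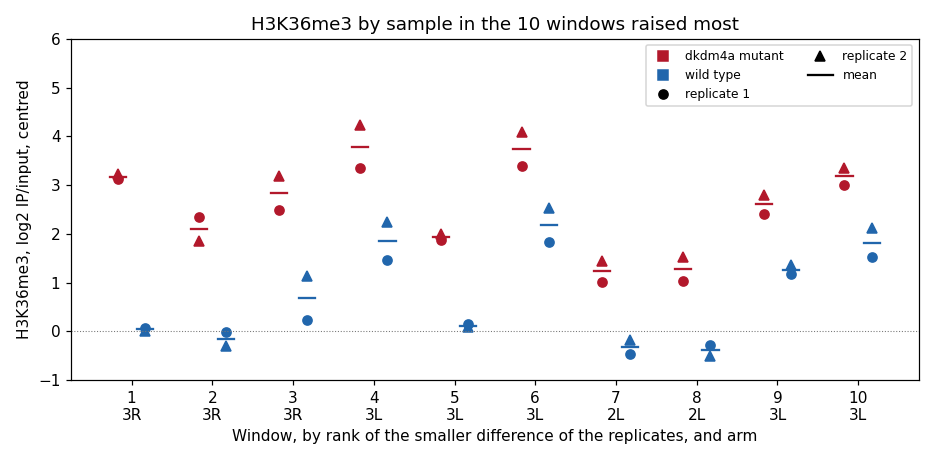
Log2 IP/input of the 10 windows with the largest smaller difference of the replicates, ranked from the left, with the arm under the rank. Red marks are mutant and blue marks wild type samples, circles replicate 1, triangles replicate 2 and bars the mean of the 2 samples. In every window both red marks lie above both blue marks, which the choice by large differences favours, and windows 1, 2, 5, 7 and 8 have wild type values near or below 0.

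On 2L, a run of 3 windows, chr2L:7714001-7720000, had mean wild type levels below the middle of the array. The window chr2L:7716001-7718000 had 1.01 and 1.45 in the mutant, against −0.46 and −0.18 in wild type, and chr2L:7718001-7720000 had 1.03 and 1.53 in the mutant, against −0.27 and −0.51 in wild type. All 9 probes of each window were raised by at least 0.5 in both replicates. Around them, 12.8% and 15.7% of the probes within 10 kb had differing input, whose part in the result was not tested either.

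The other windows of the strongest 10 were already marked in wild type embryos. In chr3L:3698001-3700000 the mutant had 3.34 and 4.24 and wild type 1.47 and 2.23, but the difference was uneven over the window, with 7 of 9 probes higher in both replicates and differences of single probes, as means of the replicates, from 0.05 to 4.61, so that the difference of the window, 1.94 by the mean of its probes, was 3.38 by their median. The levels of chr3L:11076001-11078000 were 2.42 and 2.79 in the mutant and 1.17 and 1.36 in wild type, with all 8 probes raised. The window chr3L:9064001-9066000 had 3.01 and 3.35 in the mutant and 1.52 and 2.11 in wild type, and it belongs to a run of 4 raised windows.

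Another 11 windows were raised by at least 1 in both replicates, of which a few are named here after their values were seen. The windows chr3L:19504001-19506000 and chr3L:19506001-19508000 were already strongly marked in wild type. Log2 IP/input of the first was 5.18 and 5.63 in the mutant samples and 4.07 and 4.50 in the wild type samples, and that of the second was 4.88 and 5.27 in the mutant samples and 3.81 and 4.17 in the wild type samples, with all 8 probes of the first and all 10 of the second raised by at least 0.5 in both replicates. At the other end, chr3R:3064001-3066000 had 0.99 and 1.16 in the mutant, against −0.43 and 0.00 in wild type, and all 9 of its probes were raised by that much. Outside these 11, and over all 316 windows, the replicates were furthest apart in chr3R:26342001-26344000, with differences of 1.91 and 0.61. There the mutant samples were alike, at 1.46 and 1.85, but wild type had −0.45 in replicate 1 and 1.23 in replicate 2, so that the size of this difference rests on the wild type sample used.

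**Figure D3:**
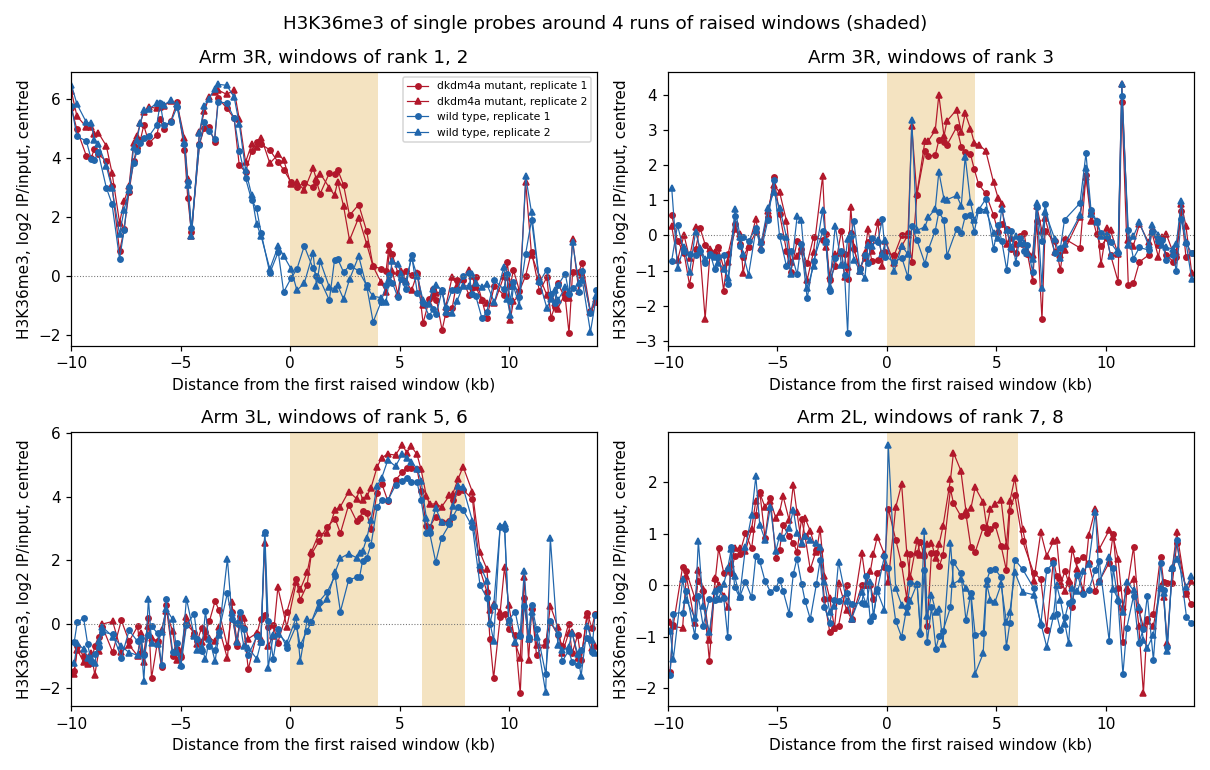
Log2 IP/input of single probes around 4 runs that hold 7 of the 10 strongest windows, against the distance in kb from the start of the first raised window of the run (shaded: raised windows). Red lines are the mutant and blue lines the wild type samples, with circles for replicate 1 and triangles for replicate 2. In the upper left panel the genotypes coincide over the marked stretch on the left and separate at its edge, and in the upper right panel the raised probes stand between sides without a marked stretch.

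Most raised windows had an intermediate wild type level in the values used here. The wild type value enters the rule, so this level is given as a description. Their median, 1.67, was 0.47 for the windows chosen after loess, 1.08 without centring and −0.25 when replicate 1 alone chose the windows. Without centring 0 is not the middle of an array, since the medians of the wild type arrays were then between −0.585 and −0.454. Wild type log2 IP/input between 1 and 4 was found in 66.8% of the raised windows and in 13.4% of all euchromatic windows. Below 0, where 60.4% of all euchromatic windows lay, there were 29 raised windows (0.109% of that class). Between 0 and 1 there were 67 (1.06%), between 1 and 2 there were 99 (4.64%), between 2 and 3 there were 69 (3.81%), and between 3 and 4 there were 43 (2.19%). Above 4, among the most strongly marked windows of these arms, 9 of 5267 were raised (0.171%). The spread of the difference over all euchromatic windows also changed with the level: its SD was 0.17 below 0, 0.36 between 1 and 2, and 0.14 above 4. Of the 174 lowered windows, 64 had a wild type level between 0 and 1 (1.01% of that class) and 56 between 1 and 2 (2.62%). The lowered share was 0.0188% below 0, 1.27% between 2 and 3, 0.562% between 3 and 4 and 0.285% above 4. It was thus also highest between 1 and 2, as for the raised windows.

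In the mutant, 283 of the raised windows (89.6%) reached a level of 1 or more, against 220 (69.6%) in wild type, and 63 crossed this level. The direction of this change was fixed by the rule, which took windows higher in the mutant. The highest wild type levels belonged to chr3R:1648001-1650000, chr3R:12970001-12972000 and chr3R:17596001-17598000. The first had 5.14 and 5.87 in the mutant and 4.55 and 5.23 in wild type, but only 1 of its 4 probes was higher in both replicates, and with the median of the probes the difference turned to −0.17. In chr3R:12970001-12972000 the mutant had 4.82 and 5.74 and wild type 4.03 and 4.78, with 5 of 7 probes higher in both. In chr3R:17596001-17598000 the mutant had 4.63 and 5.19 and wild type 4.10 and 4.55, with 8 of 9 probes higher in both.

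**Figure D4:**
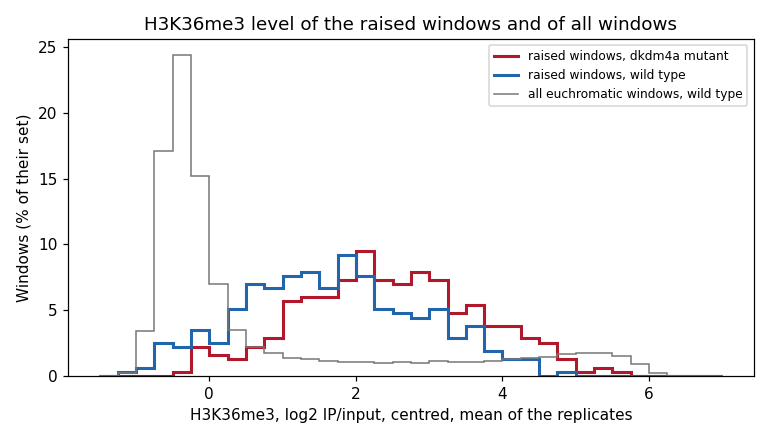
Distribution of log2 IP/input, as the mean of the 2 replicates, in bins of 0.25, with the share of windows in percent on the vertical axis. The red line is the mutant level and the blue line the wild type level of the 316 raised windows, and the grey line the wild type level of all 44159 euchromatic windows. The raised windows lie mostly between the large unmarked peak of the grey line and its strongly marked tail.

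The 29 windows without wild type signal above the array median had a median mutant level of 0.47 and a median wild type level of −0.32. In 21 of them the mutant level was above 0, and in 5 it was 1 or more. Of the 29, 22 had unmarked sequence on both sides and 4 had 1 marked side, as defined below, while the rest could not be placed. These shares were not computed for all euchromatic windows with wild type levels below 0. The lowest wild type levels were those of chr2L:12932001-12934000, with −0.57 and −0.41 in the mutant and −1.19 and −1.11 in wild type, chr2L:12964001-12966000, with −0.38 and −0.07 in the mutant and −0.94 and −0.68 in wild type, and chr3R:7868001-7870000, with −0.19 and 0.03 in the mutant and −0.98 and −0.53 in wild type. These windows were higher in the mutant but stayed near or below the middle of the array there, so the rule also took windows with little or no enrichment in either genotype. Every probe was well above background in the IP channel of all 4 samples in 9 of the 29. This held for 213 of the 316 (67.4%) and for 32.7% of all euchromatic windows.

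The raised signal was local. Windows 2 kb away from a raised window had median differences of 0.36 in replicate 1 and 0.34 in replicate 2 on the left and of 0.36 in each replicate on the right. At 4 kb the medians were between 0.08 and 0.12, and at 8 to 20 kb they were between −0.01 and 0.04. These medians include neighbours that were raised windows themselves. Around the 176 single windows the median differences at 2 kb, as means of the replicates, were 0.22 on the left and 0.24 on the right. Of these 176, 161 (91.5%) had at least 1 neighbouring window that was higher in the mutant in both replicates and 77 (43.8%) had such neighbours on both sides, against 51.6% and 11.6% of all euchromatic windows. The probes of 1 window and neighbouring windows share chromatin fragments and are not independent.

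A side of a window was called marked when the mean wild type level of the 2 windows on that side was 1 or more. By this measure 138 raised windows (43.7%) had 1 marked side, 84 (26.6%) had 2 and 84 (26.6%) had none, while 10 could not be placed because windows on a side had too few probes. Over all euchromatic windows the shares were 18.1%, 17.3% and 62.7%, and over the lowered windows they were 37.4%, 27% and 31.6%. The shares of raised and of all euchromatic windows were closer between windows of like wild type level. Among windows with a wild type level between 1 and 3, 50.6% of the raised windows and 49.0% of all euchromatic windows had 1 marked side, 30.4% and 39.6% had 2, and 16.1% and 9.91% had none. For the lowered windows of that level the shares were 41.8%, 35.4% and 17.7%. None of these shares was tested.

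Among the 138 windows with 1 marked side, the neighbouring window on the marked side had a median level of 3.24 in mutant embryos and 2.62 in wild type embryos. The raised window itself had medians of 2.48 in the mutant and 1.71 in wild type, and in the neighbour on the unmarked side the medians were 0.68 for mutant and 0.35 for wild type. The median difference was 0.48 in the neighbour on the marked side and 0.28 in that on the unmarked side. At 4 kb on the unmarked side both genotypes were below 0, at −0.08 in the mutant and −0.10 in wild type.

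**Figure D5:**
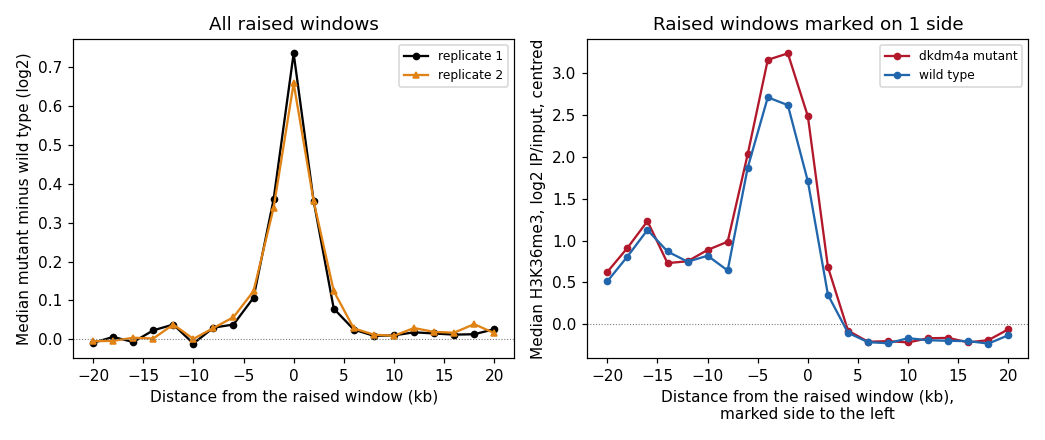
Left, median difference between mutant and wild type log2 IP/input against the distance in kb from the raised window, for replicate 1 (black circles) and replicate 2 (orange triangles). Right, median log2 IP/input of the mutant (red) and wild type (blue) around the 138 windows with 1 marked side, turned so that this side is on the left. The difference reaches 0.74 and 0.66 at the window, where the rule demanded at least 0.5, and is near 0 from 8 kb on. On the right the genotypes meet again at 4 kb on the unmarked side.

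Neighbouring raised windows formed 236 separate places. Of these, 176 were single windows, 44 were pairs, 12 were runs of 3 and 4 were runs of 4 windows, or 8 kb. The 140 windows in runs (44.3%) had a median difference of 0.79, against 0.66 for single windows. Of the 174 lowered windows, 56 (32.2%) lay in runs.

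Each run of 4 windows had its own level. In chr3L:9060001-9068000 the mean level was 1.96 and 2.11 in the mutant, against 0.84 and 1.11 in wild type, and the difference was largest in the middle windows, at 1.18 and 1.37. In chr2L:3794001-3802000 the levels were 2.11 and 2.62 in the mutant, against 1.09 and 1.79 in wild type, and the differences of the 4 windows were between 0.80 and 1.06. The run chr3L:20296001-20304000 had 2.34 and 2.66 in the mutant, against 1.60 and 1.90 in wild type, with differences between 0.54 and 0.96, of which that of chr3L:20302001-20304000 turned to −0.027 after loess. The most strongly marked run, chr3R:17594001-17602000, had 3.69 and 4.22 in the mutant, against 3.03 and 3.58 in wild type, with differences between 0.56 and 0.82. In the first of these runs both mutant means lay well above both wild type means, while in the last the mean of mutant replicate 1, at 3.69, was close to that of wild type replicate 2, at 3.58.

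The raised windows were spread over all 4 arms. There were 63 on 2L (0.617% of its windows), 93 on 3L (0.854%), 103 on 3R (0.788%) and 57 on X (0.571%), and the lowered windows numbered 44, 50, 51 and 29 on the same arms. The median difference was 0.71 on 2L, 0.73 on 3L, 0.71 on 3R and 0.69 on X. Median levels were 2.41 in the mutant and 1.83 in wild type on 2L, 2.46 in the mutant and 1.67 in wild type on 3L, 2.18 in the mutant and 1.31 in wild type on 3R, and 2.94 in the mutant and 2.04 in wild type on X. Of 94 bins of 1 Mb, 7 held no raised window, the median bin held 3, and the fullest, at 19 to 20 Mb of 3L, held 10. The nearest other raised window was a median of 9 kb away. Another lay within 10 kb of 163 of the 316, which include the 140 windows in runs. A lowered window lay within that distance of 7. The shares of all euchromatic windows with such neighbours were not computed, so nothing is read from these counts.

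Within the windows most probes moved together. Of the 2580 probes, 2363 (91.6%) were higher in the mutant in both replicates, against 28.6% of the probes of all euchromatic windows, and 1506 (58.4%) were higher by at least 0.5 in both, against 3.36%. In 169 windows (53.5%) every probe was higher in both replicates, against 0.901% of all euchromatic windows. In 97 windows under 50% of the probes were raised by 0.5 in both, and in 14 at most 1 probe was, so in these the mean of the window rested on few probes. These shares follow in part from the rule, which used the mean of the same probes.

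The IP channel alone, centred in the same way and without division by the input, was higher in the mutant in all 316 windows in both replicates, with median differences of 0.75 and 0.67. This direction was fixed by the rule, since its limits on the ratio and on the input leave no other. The input differed by −0.25 to 0.29 in replicate 1 and by −0.28 to 0.29 in replicate 2, with medians of 0.01 and 0.00, as the limit demanded. Outside the windows, where the rule set no limit, a median of 1.79% of the probes within 10 kb had input differences of at least 0.5 in the same direction in both replicates, against 1.27% around all euchromatic windows. This share was above 10% around 25 raised windows (7.91%), against 5.15% of all euchromatic windows. Around the euchromatic windows that met the limit on the input, the median was 1.235%, and 4.19% of them had a share above 10%. For the lowered windows these values were 1.242% and 10.9%. Between 94.2% and 97.3% of the probes in raised windows were well above background in the IP channel of a sample, against 85.8% to 91.8% of the probes of all euchromatic windows, and no spot in them was saturated or marked as an outlier.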

How the data were processed

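H3K36me3 ChIP-chip of 2 *dkdm4a* mutant and 2 wild type samples on 8 arrays was used, and no sample was left out. IP and input DNA had been amplified by ligation-mediated PCR, which can change the relative abundance of fragments. The files that the authors deposited come from Feature Extraction 10.5.1.1, whose processed intensity has the background of its channel subtracted, spatial trends removed and the dyes set to 1 scale linearly. The authors also deposited log2 ratios, for which the submitters' processing notes name limma. Apart from a shift that is constant within an array, these equal the log2 ratio of IP to input after local median background was taken from the mean signals. They served as an alternative. The flags for background, saturation and outliers were used as deposited. Spots marked as outliers were kept, and no raised window holds one.

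Log2 IP/input was computed from the processed intensities, centred on the median of each array and averaged in windows of 2 kb. limma 3.58.1 in R 4.3.3 (lmFit and eBayes with a trend) compared the genotypes over all windows with Benjamini-Hochberg adjustment. The replicate numbers pair the samples by scan day, as the file headers show, and over the euchromatic windows Pearson's r of mutant and wild type was 0.642 for replicate 2 minus replicate 1. Python 3.11.15, numpy 2.4.6, pandas 2.3.3 and matplotlib 3.10.9 were used. The steps were run on simulated data in which the added difference was larger than that of most raised windows. That run does not show how the steps perform at smaller differences. Named windows are the 10 of 5 or more probes with the largest smaller difference, the 5 longest runs, the 3 nearest above and below the limit of 0.5, and the 3 with the lowest and the highest wild type level. Windows next to these were named after their values were seen. The raised windows and the lists were chosen with earlier results of these data known. Alternatives covered background correction, loess, centring, scaling, the deposited ratios, dim probes, the number of probes, the median, window borders, both limits, single replicates and the form of the fit.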

Additional observations from a re-analysis of the deposited data

How the results depend on the processing

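Between 234 and 435 windows were raised under every alternative except loess within each array (52), a limit of 1.0 (21) and the use of 1 replicate (746 to 1444). Of the 316 windows, 236 were raised in the deposited log2 ratios and 303 after scaling to the same spread, but 64 after normexp background correction with an offset of 50, which moved the median difference of all euchromatic windows to 0.13 in replicate 1 and −0.18 in replicate 2, and 45 after loess. The 316 windows had median differences of 0.71 and 0.23 after normexp and of 0.35 and 0.32 after loess. With each window stripped of its highest probe, an alternative added after seeing the data, 224 of the 316 were still raised. The median wild type level, 1.67, was 0.47 after loess and −0.25 to 1.02 with 1 replicate, with −0.25 from replicate 1 alone. It was 1.08 without centring, where 0 is not the middle of an array. The share of windows in runs, 44.3%, was 37.3% after normexp, 13.5% after loess, 51.2% after scaling, 29.4% with the median of the probes, 35.1% with an input limit of 0.15, 57.1% with the limit of 1.0 and 25.5% to 38.2% with 1 replicate. limma's calls depended on the form of the fit. With the replicate block, which uses the pairing by scan day, 1754 windows were higher, 1619 lower and 316 of the raised windows called. Without a trend of the variance these counts were 2, 1 and 1, and without centring 158, 144 and 103. After loess limma called 0 higher windows, 3 lower and 0 of the raised windows, with 508 higher at an unadjusted p under 0.05. Scaling gave 158 higher windows and 119 of the raised ones, and normexp 4 lower windows. The deposited ratios gave 58 higher windows, 14 of the raised ones among them. Probes well above background in the input gave 82 higher windows, 52 of the raised ones among them. Leaving out 1 sample gave 11 to 95 higher, 17 to 47 lower and 5 to 26 of the raised windows called. Higher calls numbered 11 without wild type replicate 1 and 17 without mutant replicate 2, and lower calls 17 without mutant replicate 1, 30 without mutant replicate 2 and 36 without wild type replicate 1. The lone sample left was assumed to vary like the other group. Of 37 named windows, 26 changed by over 1.5 times after normexp and 25 after loess, against 0 in the deposited log2 ratios, without centring and after scaling. Of these windows chr3L:20302001-20304000 turned to −0.027 after loess, and chr3R:1648001-1650000 to −0.17 with the median of the probes and −0.12 without its highest probe. No other named window changed sign in the alternatives run. The causes of these changes were not tested. Weak IP signals limit the precision of ratios near or below 0.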
